A study of Homo sapiens with 4 samples.

Results

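The genes described here are the 5 subunits of the transcription factor NF-κB (NFKB1, NFKB2, REL, RELA and RELB) and 5 genes of its feedback control (NFKBIA, NFKBIE, NFKBIZ, TNFAIP3 and BIRC3). They were taken by gene name from the deposited count table and make up 10 of its 60544 genes. The rule uses names and no measured value, though the names were chosen with earlier results of these data known. All 10 passed the filter on low counts that left 16802 genes for testing. The study asked what changes in RNA when METTL3, the catalytic subunit of the enzyme that writes N6-methyladenosine (m6A) on messenger RNA, is depleted. It used PC3, an established human prostate cancer line, grown in RPMI-1640 with serum, and poly(A) RNA was sequenced. The control group, labelled shNC, and the group labelled sh812 had 2 libraries each; sh812 was taken for the knockdown arm, being the only other label. The labels name a single hairpin and do not say whether replicates were separate cultures, so the p-values measure only the spread between these libraries, which may be technical.

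NF-κB is a family of dimeric transcription factors held in the cytoplasm by inhibitor proteins of the IκB family. Signals from cytokine receptors and pattern recognition receptors activate the IκB kinases, IκB is degraded, and the freed dimers switch on inflammatory and survival genes. Several of the genes switched on encode inhibitors of the pathway, so that it limits its own activity, and PC3 cells are known for high NF-κB activity without added stimulus.

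Total gene counts were 31450648 to 37041330 per library, of which 23731 to 28684 fell on the 10 genes. METTL3, the target, dropped from 1682 and 1379 counts in shNC to 269 and 313 in sh812, a log2 change of -2.42 (SE 0.11). Abundance is given as CPM, the depth-scaled count computed from the normalized library size. The 9 leukocyte markers summed to 0.912 to 2.11 CPM, with CD3D, CD3E, CD2 and MS4A1 at 0. The 4 endothelial markers summed to 41.6 to 50.4 CPM through PECAM1 and KDR, while VWF and CDH5 did not exceed 6 counts, and the 6 fibroblast markers to 48.5 to 57.1 CPM, mostly COL1A1. Of these, PECAM1 and COL1A2 were called higher and KDR and COL3A1 lower in sh812, and their part in the results on the 10 genes was not tested. Of the epithelial markers KRT8, KRT18, EPCAM and CDH1 were present and KLK3, the gene of prostate-specific antigen, had 0 counts in each library. Changes followed gene length, with a Spearman correlation across 12257 genes of -0.297 between the groups and -0.304 between the shNC replicates (replicate 2 minus replicate 1). This is a description across genes that share libraries.

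NF-κB binds a short DNA element, the κB site, and feedback on the pathway's own genes runs through such sites. To show where this element stands near start sites of these genes, RefSeq promoter windows were searched on both strands for the κB consensus. The windows (GRCh38.p14) ran from 250 bases before to 50 after a start site, and each start position of a match was counted once. Of the 10 genes 8 had a window, all but RELB and NFKBIE. A match stood in at least 1 window of 7 of the 8 genes, against 17.2% of 11358 tested genes with a window and 11.3% of all 35116 windows. The share of tested genes counts a match in any window of a gene, and the last share counts single windows. The 10 genes were picked as subunits and feedback genes of NF-κB, so a high share could be foreseen from that choice and is a description. RELA had 2 windows and no match. For each of the 7 genes a single stretch is shown, from 1 window. NFKB2 had 5 matches in all, 3 in the window shown and 2 in another, and NFKBIZ had 1 more in another window. The stretches below are written 5′ to 3′ on the gene's own strand, with the matched bases in capitals.
NFKBIZ: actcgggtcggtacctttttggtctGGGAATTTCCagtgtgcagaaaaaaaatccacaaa
NFKBIA: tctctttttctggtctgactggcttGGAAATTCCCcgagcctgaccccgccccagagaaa
BIRC3: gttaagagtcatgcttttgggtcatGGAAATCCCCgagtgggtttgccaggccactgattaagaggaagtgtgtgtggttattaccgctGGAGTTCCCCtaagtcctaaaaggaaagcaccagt
TNFAIP3: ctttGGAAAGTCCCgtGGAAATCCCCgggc
NFKB1: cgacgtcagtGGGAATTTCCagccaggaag
NFKB2: aaacgtcatGGGAATTCCCCcctccgggg
REL: gtcagccgcGGGAAATTCCCctcccgcca
Their positions are chr3:101827742-101827801 (plus strand), chr14:35404796-35404855 (minus strand) and chr11:102317260-102317383 (plus strand). Those of the others, all on the plus strand, are chr6:137867188-137867217, chr4:102501300-102501329, chr10:102394462-102394490 and chr2:60881518-60881546. The same 10 letters mark NFKBIZ and NFKB1, and the capitals of NFKBIA are their reverse complement. The stretches of TNFAIP3 and BIRC3 show 2 separate matches each. In NFKB2 and REL the capitals hold 2 matches shifted by 1 base. As the expression values show, these matches precede a RefSeq start site of a gene that fell (NFKBIZ), of a gene that rose (NFKBIA) and of 5 genes with no call. In GENCODE 29 (GRCh38) TNFAIP3, NFKB2 and REL start further upstream, at 137867188, 102394110 and 60881521. The capitals of these genes therefore lie inside the annotated gene. A match is a run of letters in a window and was not measured as a bound site.

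The comparison of sh812 with shNC asked whether the transcripts of the pathway's core change when METTL3 is depleted. Of the 10 genes, 2 passed the threshold of 0.05 on the adjusted p of edgeR's test (and are termed called), NFKBIA higher and NFKBIZ lower, against 10.8% of all genes tested. Both calls were feedback genes, and no subunit was called. In the higher direction 5.43% of all genes were called and in the lower direction 5.42%. The libraries of the groups did not overlap in 4 of the 10 genes (NFKBIA and NFKBIE higher, NFKBIZ and REL lower), and in 53.6% of all genes, with 26.2% higher and 27.4% lower. Read against those shares, counts this small do not set the 10 genes apart.

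**Figure D1:**
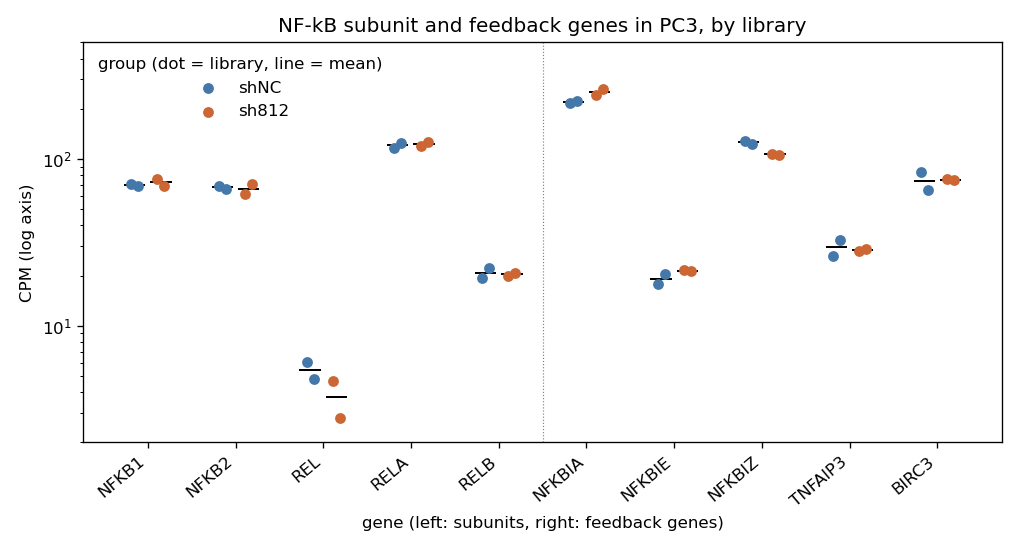
Abundance of each gene in each library, in CPM on a log axis, with shNC libraries in blue, sh812 libraries in orange and a line at the mean of 2 libraries. NFKBIA rises from 217 and 223 CPM to 242 and 263 CPM, NFKBIZ falls from 129 and 123 CPM to 108 and 106 CPM, and the groups of NFKB1, NFKB2, RELA and RELB overlap.

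RELA, the p65 subunit that carries the transactivation domain of the classical dimer, had 117 and 125 CPM in shNC and 119 and 127 CPM in sh812. The groups overlapped, and the log2 change was 0.027 (SE 0.065, 95% interval -0.11 to 0.16, adjusted p = 0.849). NFKB1, whose p105 product is both an inhibitor and the precursor of p50, had 71.2 and 69.2 CPM in shNC and 76.2 and 69.3 CPM in sh812. A single sh812 library, replicate 1, stood above the other 3. Its log2 change was 0.051 (95% interval -0.097 to 0.20, adjusted p = 0.727).

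The subunits of the alternative pathway were as close between groups. NFKB2, the gene of p100 and p52, had 69.1 and 66.2 CPM in shNC and 61.8 and 71.1 CPM in sh812, so that the sh812 libraries lay on either side of both controls. RELB, the usual partner of p52, had 735 and 698 counts in shNC (19.4 and 22.1 CPM) and 703 and 736 in sh812 (mean 20.3 ± 0.382 CPM, SD, n = 2), both inside the control range in CPM. Their log2 changes were -0.027 (95% interval -0.18 to 0.13, adjusted p = 0.88) and -0.028 (95% interval -0.25 to 0.19, adjusted p = 0.911). For RELA, NFKB1, NFKB2 and RELB together, the intervals span folds from 0.842 to 1.15, from the lowest lower bound to the highest upper bound, so changes beyond that span lie outside all 4 intervals.

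REL, the c-Rel subunit best known from lymphoid cells, was the rarest of the 10 genes. The gene (ENSG00000162924) spans chromosome 2 from 60881521 to 60931610 on the plus strand (GENCODE 29, GRCh38). It had 231 and 151 counts (6.09 and 4.77 CPM) in shNC and 163 and 100 counts (4.64 and 2.79 CPM) in sh812. Both sh812 libraries were below both controls, though sh812 replicate 1 lay just under shNC replicate 2. The log2 change was -0.55 (SE 0.22), and the 95% interval of the fold ran from 0.498 to 0.934. Its p was 0.019 before and 0.11 after adjustment, so REL was not called. An unadjusted p under 0.05 was found in 24.8% of all genes tested. Without shNC replicate 2 the log2 change was -0.71 (adjusted p = 0.012), and without sh812 replicate 2 it was -0.23 (adjusted p = 0.704). In the annotation 5702 exonic bases of REL are shared with another gene on the same strand, AC010733.2, whose identifier has 0 counts in all 4 libraries, so the REL count may leave out reads from that stretch.

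**Figure D2:**
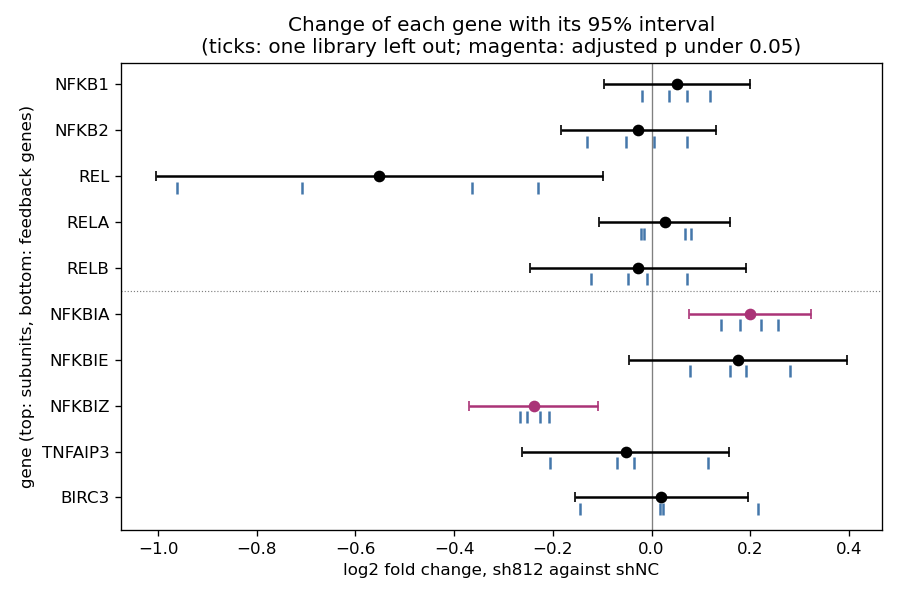
Log2 change of each gene, sh812 against shNC, with its 95% interval from the edgeR fit, and ticks for the values with a single library left out. The intervals of NFKBIA and NFKBIZ, in magenta, are the called ones; that of REL also lies below 0 but its adjusted p is 0.11.

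NFKBIA encodes IκBα, the inhibitor that is rebuilt first after NF-κB activation. The gene (ENSG00000100906) spans chromosome 14 from 35401511 to 35404749 on the minus strand (GENCODE 29, GRCh38), and no other annotated exon overlaps its exons. It was the most abundant of the 10 genes, with 8241 and 7037 counts in shNC and 8504 and 9394 in sh812. In CPM these were 217 and 223 against 242 and 263, with both sh812 libraries above both controls. The mean rose from 219.9 ± 3.71 to 252 ± 14.3 CPM (SD, n = 2), a fold of 1.15 (log2 0.20, SE 0.06, adjusted p = 0.0334). The call was lost with library size alone as scaling (log2 0.15, adjusted p = 0.0902) and with each library's length trend removed (log2 0.14, adjusted p = 0.115). It was also lost without sh812 replicate 1 (log2 0.26, adjusted p = 0.165) and without sh812 replicate 2 (log2 0.14, adjusted p = 0.479).

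NFKBIZ encodes IκBζ, a nuclear member of the IκB family that is needed for a secondary set of NF-κB targets, IL6 among them. The gene (ENSG00000144802) spans chromosome 3 from 101827991 to 101861022 on the plus strand, with no other annotated exon over its exons. It had 129 and 123 CPM in shNC and 108 and 106 CPM in sh812, with both sh812 libraries below both controls. The mean fell from 126 ± 4.12 to 107 ± 1.33 CPM (SD, n = 2), a fold of 0.847 (log2 -0.24, SE 0.063, adjusted p = 0.0152). This is a fall of 15.3% of the control level. NFKBIZ was called in each of the 10 alternatives that use all 4 libraries, with log2 changes from -0.285 to -0.197 and adjusted p-values from 0.00568 to 0.0343. Its adjusted p was 0.204 without sh812 replicate 1 (log2 -0.25) and 0.233 without sh812 replicate 2 (log2 -0.23), fits in which the lone sh812 library is assumed to vary like the controls.

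NFKBIE, which encodes the cytoplasmic inhibitor IκBε, had 17.7 and 20.3 CPM in shNC and 21.7 and 21.2 CPM in sh812. Both sh812 libraries were above both controls, but the controls differed by more than the gap. The log2 change was 0.18 (SE 0.11, 95% interval -0.045 to 0.40, adjusted p = 0.325). TNFAIP3, the gene of A20, a ubiquitin-editing enzyme that shuts off signalling upstream of the IκB kinases, had 26.3 and 32.7 CPM in shNC and 28.1 and 28.8 CPM in sh812. Its sh812 libraries lay between the controls, with a log2 change of -0.052 (95% interval -0.26 to 0.16, adjusted p = 0.81).

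BIRC3, which encodes the ubiquitin ligase cIAP2, had the widest control pair of the feedback genes on this scale, 83.5 and 64.9 CPM. Its sh812 libraries, at 75.5 and 75.2 CPM, fell between them and close to each other. The log2 change was 0.02 (95% interval -0.16 to 0.20, adjusted p = 0.923). The outcome depended on which control was kept. It was 0.22 without shNC replicate 1 (adjusted p = 0.0405) and -0.14 without shNC replicate 2 (adjusted p = 0.146). TNFAIP3 likewise was at -0.205 when the first control was left out and at 0.115 when the second was, with no call in either.

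Levels of different genes were compared per length, as CPM divided by kilobases of annotated exon (RPKM). The order was the same in both groups, with NFKBIA first, then RELA, NFKBIZ, NFKB2, NFKB1, BIRC3, NFKBIE, RELB, TNFAIP3 and REL last. NFKBIA stood at 92.7 ± 1.56 RPKM in shNC and 106 ± 6.03 RPKM in sh812 (SD, n = 2), above 97.5% of the genes tested in shNC. RELA and NFKBIZ did not separate in the controls, at 22.1 ± 1.04 and 21.3 ± 0.699 RPKM (SD, n = 2). In sh812 they did, at 21.9 and 23.2 RPKM against 18.2 and 17.9 RPKM. NFKB1 and BIRC3, and NFKBIE and RELB, were neighbours that differed by less than their spread in shNC, and the libraries of RELB and TNFAIP3 overlapped there. REL, at 0.412 ± 0.0706 RPKM in shNC, was above only 17.9% of the genes tested. Its length includes the 5702 bases shared with AC010733.2, from which reads may be left out. The level of REL, its rank and its share of the subunits may therefore be too low. Within the summed RPKM of the 5 subunits, RELA took 38.8% to 40.6%, NFKB2 25.2% to 28.0%, NFKB1 19.4% to 22.2%, RELB 11.6% to 12.9% and REL 0.372% to 0.841% across the 4 libraries. The subunit mix thus had overlapping ranges in both groups for all but REL, whose share touched at 0.644%. RPKM divides by the union of annotated exons, and the longest transcript in its place raised the RELA level to 37.9 RPKM and put RELB (9.03 RPKM) above NFKBIE in shNC.

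The genes differ in length and in a sequence feature that the study's target enzyme reads. NFKBIA, at 2373 exonic bases, is shorter than most genes tested (percentile 23.2), and REL, at 13170 bases, is longer than most (percentile 95.8). NFKBIZ has 5902 bases (percentile 65.5). The letters GGACT, a common form of the motif that METTL3 methylates, occurred 2.57 times per kilobase in the longest NFKBIA transcript and 0.765 times in that of NFKBIZ, read on the transcript strand. The median of the genes tested was 0.909. NFKB2 (2.34), RELA (2.20) and TNFAIP3 (2.11) were also high, and BIRC3 (0.385) was low. Of the called genes NFKBIA was above and NFKBIZ below the median, and genes without a call stood on both sides too. Too few genes were called to read a relation between these letters and the calls. Whether any of these letters carries m6A was not measured.

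**Figure D3:**
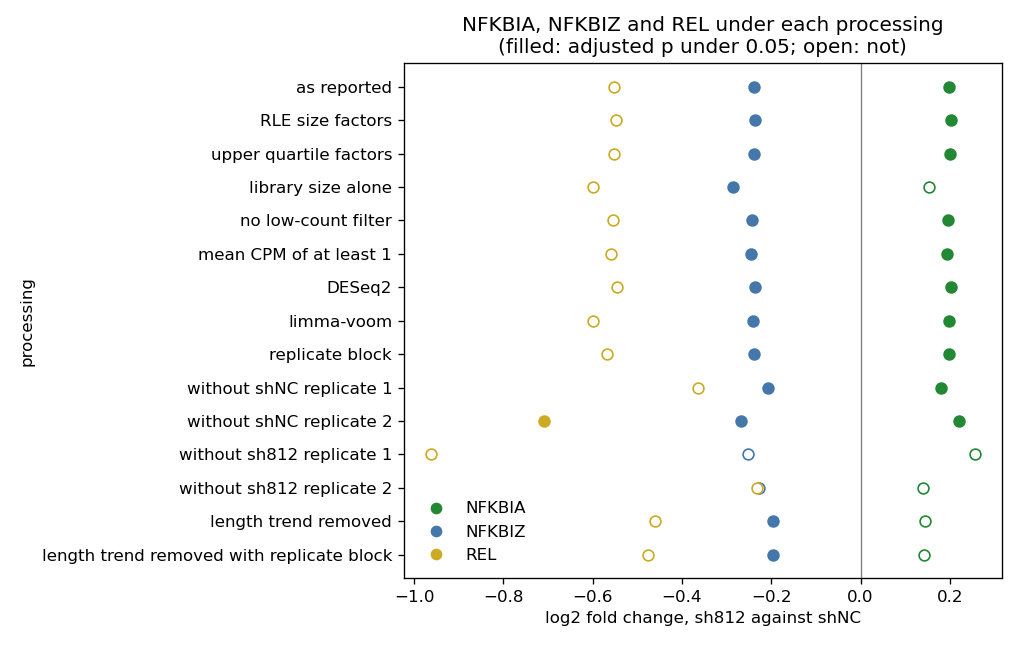
Log2 change of NFKBIA, NFKBIZ and REL, sh812 against shNC, under each way of processing the counts, with filled points for an adjusted p under 0.05. NFKBIZ stays between -0.285 and -0.197, NFKBIA keeps its sign but loses its call in 5 settings, and REL is called only without shNC replicate 2.

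The rest of the pathway was read from 4 lists of other genes by role, written with earlier results of these data known. Of 30 receptor and adaptor genes tested, 0 were called higher and 4 lower (13.3%, beside 10.8% of all genes), and their median log2 change was -0.011 beside -0.006 over all genes. TLR4, the endotoxin receptor, had 132 and 113 counts in shNC and 14 and 2 in sh812 (log2 change -3.94, SE 0.45, adjusted p = 1.88e-06). That is a fall from 3.53 ± 0.0658 to 0.227 ± 0.242 CPM (SD, n = 2) in a rare transcript. IL1RAP, the co-receptor of the interleukin-1 receptor, fell from 18.7 ± 1.16 to 11.4 ± 0.434 CPM (SD, n = 2), a log2 change of -0.72 (adjusted p = 0.000223). Both genes were called in all 10 alternatives with 4 libraries and in all 4 fits with a library left out. BIRC2, the gene of cIAP1, and TNFRSF10B, a death receptor, fell less, by 0.19 and 0.18 on the log2 scale (adjusted p = 0.0409 and 0.0495). TNFRSF10B was called in 4 of the 10 alternatives. Neither was called without shNC replicate 1 or without either sh812 replicate (adjusted p from 0.0667 to 0.381).

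Of 24 kinase and ubiquitin ligase genes tested, 2 were called higher and 3 lower (20.8%, beside 10.8% of all genes), with a median log2 change of -0.027. UBE2N, the ubiquitin-conjugating enzyme that builds the chains read by the TAK1 complex, rose from 139 ± 6.94 to 167 ± 10.8 CPM (SD, n = 2), a log2 change of 0.26 (adjusted p = 0.00936). SHARPIN, part of the linear ubiquitin ligase, rose by a log2 change of 0.23 (adjusted p = 0.0208) and was not called with library size alone as scaling (adjusted p = 0.059). MAP3K3, TAB3, an adaptor of TAK1, and the apoptosis inhibitor XIAP fell by 0.30, 0.30 and 0.28 on the log2 scale (adjusted p = 0.0161, 0.0254 and 0.0346). With the length trend removed TAB3 (adjusted p = 0.0948) and XIAP (0.114) were not called. The 3 subunits of the IκB kinase complex, CHUK, IKBKB and IKBKG, looked up after their values were seen, were not called. Of 22 other inhibitors and IκB genes tested, 1 was called (4.55%, beside 10.8% of all genes), CYLD, a deubiquitinase that opposes the pathway. It fell from 41.9 ± 1.60 to 34.7 ± 0.325 CPM (SD, n = 2), a log2 change of -0.27 (adjusted p = 0.0358), and had an adjusted p of 0.143 with the length trend removed. UBE2N, SHARPIN, MAP3K3, TAB3, XIAP and CYLD all lost their call without sh812 replicate 1 (adjusted p from 0.211 to 0.34) and without sh812 replicate 2 (0.0602 to 0.276). Without shNC replicate 1, TAB3, XIAP and CYLD lost theirs as well (0.0647 to 0.129).

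**Figure D4:**
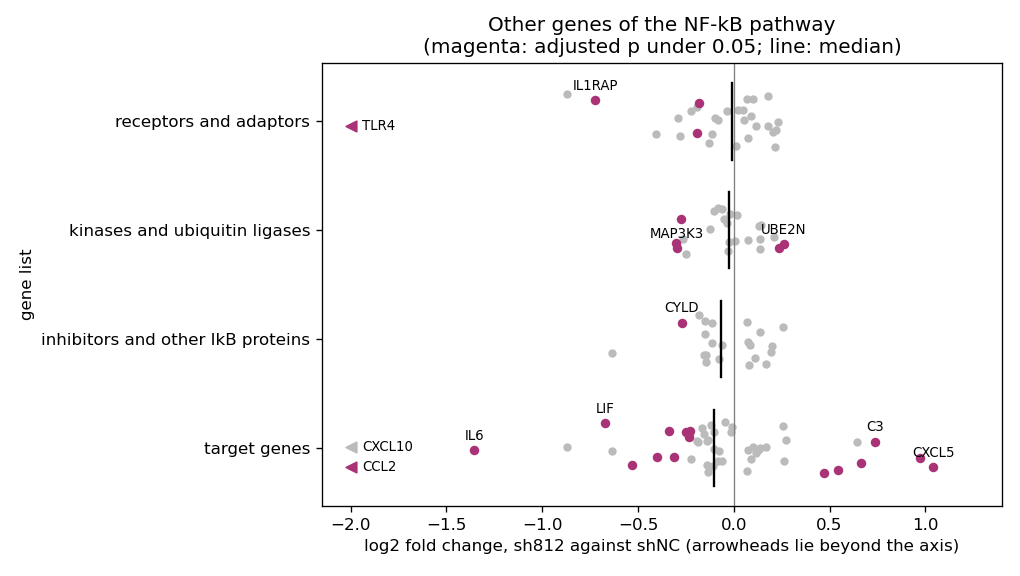
Log2 change, sh812 against shNC, of each tested gene in the 4 lists, with called genes in magenta, others in grey and a line at each median. TLR4, CCL2 and the uncalled CXCL10 lie beyond the left edge, and the called target genes within the axis stand on both sides, from IL6 at -1.35 to CXCL5 at 1.04.

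Target genes of NF-κB were called in both directions, where no subunit was called. Of 51 tested, 6 were called higher and 10 lower, 31.4% beside 10.8% of all genes, with a median log2 change of -0.10. This list was picked from general knowledge with earlier results known, so its share is a description. CXCL5, a neutrophil chemokine, rose from 1912 and 1976 CPM to 3978 and 4030.4 CPM (log2 1.04, SE 0.053, adjusted p = 9.36e-13). The complement gene C3 had 119 and 134 CPM in shNC and 198 and 225 CPM in sh812 (log2 0.74, adjusted p = 9.12e-08). PTGS2, the gene of cyclooxygenase-2, had 144 and 142 CPM in shNC and 205 and 247 CPM in sh812 (log2 0.66, adjusted p = 5.51e-07). LCN2, which encodes the iron-siderophore binder lipocalin-2, had 171 and 188 CPM in shNC and 255 and 269 CPM in sh812 (log2 0.55, adjusted p = 1.66e-06). None of these 4 genes had overlapping groups, which could be foreseen as they were picked by smallest p. Of all genes tested, 26.2% had groups that did not overlap with sh812 higher.

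On the lower side IL6, the cytokine, had 50.8 CPM in both shNC libraries and 21.8 and 18.0 CPM in sh812 (log2 -1.35, adjusted p = 4.27e-10). LIF, a cytokine of the IL6 family, had 215 and 196 CPM in shNC and 126 and 132 CPM in sh812 (log2 -0.67, adjusted p = 8.13e-08). The polyamine-degrading enzyme gene SAT1 fell from 63.6 ± 1.75 to 44.0 ± 0.078 CPM and the adhesion gene ICAM1 from 165 ± 9.13 to 125 ± 10.9 CPM (SD, n = 2). Their adjusted p-values were 4.29e-05 and 0.000318. Without sh812 replicate 1 ICAM1 was not called (log2 -0.31, adjusted p = 0.0924). With library size alone as scaling, 6 target genes were called higher and 18 lower. All genes tilted the same way under that scaling, with 561 called higher and 1328 lower. The κB consensus stood in the promoter windows of 4 of 5 called-higher targets with a window (95% exact interval 28.4% to 99.5%). It stood in 2 of 7 called-lower ones (3.67% to 71.0%) and 18 of 29 without a call (42.3% to 79.3%). The share over all tested genes with a window was 17.2%. These intervals overlap, but with 5 and 7 genes they are too wide to show a likeness or a difference.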

How the data were processed

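The deposited table holds whole-number read counts per gene that the authors had not normalized, treated as such because the library totals differ. Per the submitters' processing notes, fastp, STAR 2.7.1a, featureCounts, DESeq2 and the build hg38 were used; the annotation release and strand setting are not given in the sources used here. Here, edgeR 4.0.16 in R 4.3.3 was run on the whole table (filterByExpr, TMM, glmQLFit and glmQLFTest, prior count 0.125, all 4 libraries, no covariate), with Benjamini-Hochberg adjustment over 16802 genes and calls at an adjusted p under 0.05. Every adjusted p in the text is from this fit or the alternative named beside it. CPM and RPKM were computed from the counts with TMM-adjusted library sizes. Intervals of fold changes come from the fit's moderated degrees of freedom. Positions, exon lengths and transcripts are from GENCODE 29 (GRCh38), promoter windows from RefSeq (GRCh38.p14), and neither is stated to be the authors' annotation. The chi-square per gene between replicates was 8.43 (shNC) and 4.51 (sh812), above the value near 1 that counting noise alone gives, so no pair was treated as 1 library deposited in duplicate; this does not show what the spread comes from. The fits were tested on simulated counts.

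The 10 genes and the pathway lists were chosen with earlier results of these data known. Named are METTL3, the 10 genes, and from each pathway list at most 4 called genes per direction by smallest p; others are marked. The lists hold 32 receptor and adaptor, 26 kinase and ligase, 23 inhibitor and 55 target genes (130 distinct, 121 tested). Promoter motifs and levels per length were planned, and the GGACT count and the longest-transcript length were added after seeing the data. Alternatives were RLE factors, upper quartile factors, scaling by library size alone, testing with no low-count filter or with a minimum mean CPM of 1, DESeq2 1.42.0, limma-voom (limma 3.58.1), the replicate number as a block, each library left out, and removal of each library's lowess trend on exon length (span 0.3), alone or with the block.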

Additional observations from a re-analysis of the deposited data

How the results depend on the processing

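Of the 10 genes, 2 were called in the main analysis and in 7 of the 10 alternatives that use all libraries. The number was 1 (NFKBIZ) with library size alone, with the length trend removed and with the length trend removed together with the replicate block. Leaving out a library gave from 0 to 3, with 0 without either sh812 replicate, where few genes of the whole table were called (313 and 424, against 1822). The 26 called genes of the pathway lists became from 11 to 41, with 41 without shNC replicate 2 and 11 without either sh812 replicate. The cause of these shifts was not tested. METTL3 ran from -2.52 to -2.33 with a library left out and was called throughout. No call reversed. A looser motif, with any base in the middle of the κB consensus, was found in all 8 genes with a window, against 7 with the κB consensus, and in 78.7% of tested genes.

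Library size alone called 561 genes higher and 1328 lower (29.7% higher against 50.1%), and moved the median of all genes to -0.05. The replicate numbers are shared by both groups but not stated to pair libraries, and same-numbered deviations correlated at 0.0164 across genes. With the replicate block 2 of the 10 genes were called, with METTL3 at -2.42, and 26 pathway genes. With 2 libraries per group, changes as small as those of NFKBIA and NFKBIE sit near what this depth and spread can show.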

Other observations

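The 8 called target genes outside the naming rule, chosen here after their values were seen, also lay on both sides. Of these, 6 were lower and 2 higher in sh812. IL1B, the most abundant, fell from 2184 ± 21.6 to 1833 ± 38.0 CPM (SD, n = 2; log2 change -0.25, adjusted p = 0.00302). CXCL8 fell from 571 ± 23.0 to 485 ± 7.40 CPM and CXCL2 from 127 ± 1.69 to 109 ± 4.75 CPM (SD, n = 2). Their adjusted p-values were 0.00823 and 0.022. CSF3, a granulocyte growth factor, and BCL2A1, a survival gene of the BCL2 family, fell by 0.31 and 0.34 on the log2 scale (adjusted p = 0.00211 and 0.00981). CCL2, a monocyte chemokine, had 20 and 18 counts in shNC and 2 and 0 in sh812. With each sh812 library set to a floor of 3 counts, the sh812 mean was 6.48-fold lower. That value leaves out the spread of shNC, and the fit's 95% interval of the fold ran from 0.0139 to 0.24. The chemokine CCL20 rose from 25.8 ± 0.747 to 35.7 ± 2.29 CPM (SD, n = 2), and LTB, the gene of lymphotoxin beta, had 58 and 49 counts in shNC and 110 and 104 in sh812. Their adjusted p-values were 0.00155 and 0.0242. The calls of these 8 genes were not followed gene by gene through the alternatives. The changes of CXCL2, CXCL8 and IL1B were about as small as that of NFKBIZ, whose call was lost without either sh812 replicate.

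Also looked up after the values were seen, TNF, the cytokine most often used to activate the pathway, had 0 counts in all 4 libraries.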
